A study of Mus musculus with 8 samples.

Results

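The sodium-coupled neutral amino acid transporters (SNATs) are encoded by the Slc38a genes, and 10 of these genes were examined in islets of mice with a deletion of Fibulin-5 (Fbln5) in pancreatic β-cells: Slc38a1, Slc38a2, Slc38a3, Slc38a4, Slc38a5, Slc38a6, Slc38a7, Slc38a9, Slc38a10 and Slc38a11. The genes were taken by symbol, and every array probe whose RefSeq accession maps to one of them was kept, which gave 18 of 56605 probes and 10 of 22911 named genes. The family was selected with the values of Slc38a1 and Slc38a2 in this same comparison already known, so both genes are described without a test. The other 8 genes came in by name, but with earlier results of these data known. Their limma results, adjusted over all probes on the array, are therefore not independent of the choice.

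RNA was taken from islets of 11-week-old mice, with 150 islets in each extraction, and hybridized to 8 one-colour Agilent arrays on 1 slide, 4 for each group. The control mice were floxed at Fbln5, a gene for a secreted matricellular glycoprotein of elastic fibres, and the βFbln5KO mice also carried Ins1-Cre, a transgene that expresses Cre recombinase from the mouse insulin 1 promoter. All mice were male littermates according to the methods, and no arrays of mice with Cre alone were among those analysed here. The labels give replicate numbers but do not state whether an extraction held the islets of 1 mouse or of several, so p-values measure the spread between these extractions only. Cre acts in the β-cells, while the arrays measured whole islets with their α-, δ-, vascular and attached acinar cells, so that fewer cells of a type and less RNA per cell cannot be told apart.

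SNATs move small neutral amino acids such as glutamine, alanine, serine and asparagine across membranes with sodium. The carriers of transport system A import them at the plasma membrane, those of system N exchange glutamine and histidine against protons and can run in either direction, and other members sit in the lysosome, where they release amino acids or report on them to the growth regulator mTORC1. In islets, amino acids feed β-cell metabolism and add to glucose-stimulated insulin secretion, and glutamine carriers are also known from studies of α-cell growth.

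A level below is the log2 processed signal of a probe minus the 75th percentile of its array, and a difference is the βFbln5KO mean minus the control mean on that scale. Levels of different probes are not comparable with each other. A probe is called detected on an array where the scanner software marked it as well above background, which held for 56.6% to 58.8% of the spots of a control array and 52.6% to 56.6% of those of a βFbln5KO array. The 4 control arrays filled 1 row of the slide and the 4 βFbln5KO arrays the other, so that the effects of row and genotype cannot be told apart. Fbln5 itself, read by the probe A_55_P2088615, had levels of −1.70, −1.32, −2.05 and −1.83 on the control arrays and −2.74, −2.40, −2.38 and −1.37 on the βFbln5KO arrays. The difference of −0.50 (SE 0.29) did not pass the test in limma (adjusted p = 0.342), and the array labelled βFbln5KO replicate 4 lay inside the control range. Without that array the difference in Fbln5 was −0.78 (adjusted p = 0.0227 in limma). The array was singled out by its Fbln5 level, so this p-value is not read as a test of Fbln5. In the same fit 11206 probes were higher and 338 lower at an adjusted p under 0.05, against 5 and 1 with all arrays. All 10 β-cell marker genes, Ins1 and Ins2 among them, were detected on every array, and none passed the test. Their median difference was −0.09, and 2 of the 10, Iapp and Slc30a8, were lower without overlap between the groups, as were 2.07% of all genes whose brightest probe was detected on every array.

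Of the 18 Slc38a probes, 12 were detected on all 8 arrays and 6 on 1 to 7 arrays. Over the whole array, 26612 probes were detected on all arrays, 11138 on some and 18855 on none, with median differences of −0.02, −0.13 and 0.47, so that undetected probes as a class read higher on the βFbln5KO arrays. For a dim Slc38a probe the detection in each group is therefore given with its level.

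Slc38a1, a system A carrier that imports glutamine, differed most within the family: its signal was 49.3-fold higher in βFbln5KO islets than in control islets. The brightest of its 3 probes, A_51_P507053, had levels of −3.47, −2.56, −3.00 and −3.69 on control arrays 1 to 4. On the βFbln5KO arrays its levels were 2.40, 2.46, 2.51 and 2.40. The groups lay far apart, the probe was detected on all 8 arrays, and the 4 βFbln5KO arrays were nearly level while the control arrays spread more widely. The mean was −3.18 ± 0.50 (SD, n = 4) for control islets against 2.44 ± 0.05 (SD, n = 4) for βFbln5KO islets, a difference of 5.62 (SE 0.22). Before scaling, the processed signal ran from 64.4 to 171 on the control arrays and from 5022 to 5564 on the βFbln5KO arrays. With normexp background correction, which raises low signals, the difference was 4.91.

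The other probes of Slc38a1 read the same way. A_51_P133005 had levels of −4.49, −4.02, −4.78 and −5.48 on the control arrays, where it was detected on 3 of 4, and of 1.10, 1.14, 1.23 and 1.23 on the βFbln5KO arrays. Its difference was 5.87 (SE 0.27), and again the groups did not overlap. A_66_P102970 was detected on no control array, with levels of −7.02, −6.95, −7.16 and −6.94, and on every βFbln5KO array, with levels of −3.17, −2.47, −1.77 and −2.21. It was at least 5.56-fold higher in βFbln5KO islets, a bound set against the lowest detected signal of each control array. The array labelled βFbln5KO replicate 4, whose Fbln5 level lay within the control range, had Slc38a1 levels close to those of the other βFbln5KO arrays for all 3 probes. The probes lie in rows 257, 109 and 4 of the array, so that 1 of them is near an edge. For probes detected on every array, the median difference was 0.01 in the first 16 rows and −0.02 away from the edges.

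Slc38a2, the system A carrier that cells are known to raise when amino acids run short or the medium is hypertonic, was lower in βFbln5KO islets. Its single probe A_51_P458384 had levels of 2.15, 1.92, 2.22 and 1.97 on the control arrays and of 1.10, 1.21, 1.00 and 1.02 on the βFbln5KO arrays. Every βFbln5KO array was below every control array, and the gap between the groups was wider than the spread within either. The means were 2.06 ± 0.14 (SD, n = 4) and 1.08 ± 0.09 (SD, n = 4), a difference of −0.98 (SE 0.08) or 1.98-fold lower. The processed signal was 3280 to 4242 for control islets and 1826 to 2263 for βFbln5KO islets. Slc38a1 and Slc38a2 thus differed in opposite directions, and the groups did not overlap for either gene. Over all 56605 probes, 19.2% were without overlap and higher and 2.72% without overlap and lower. The Slc38a family was selected on this contrast, so nothing is read from the comparison with these shares.

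**Figure D1:**
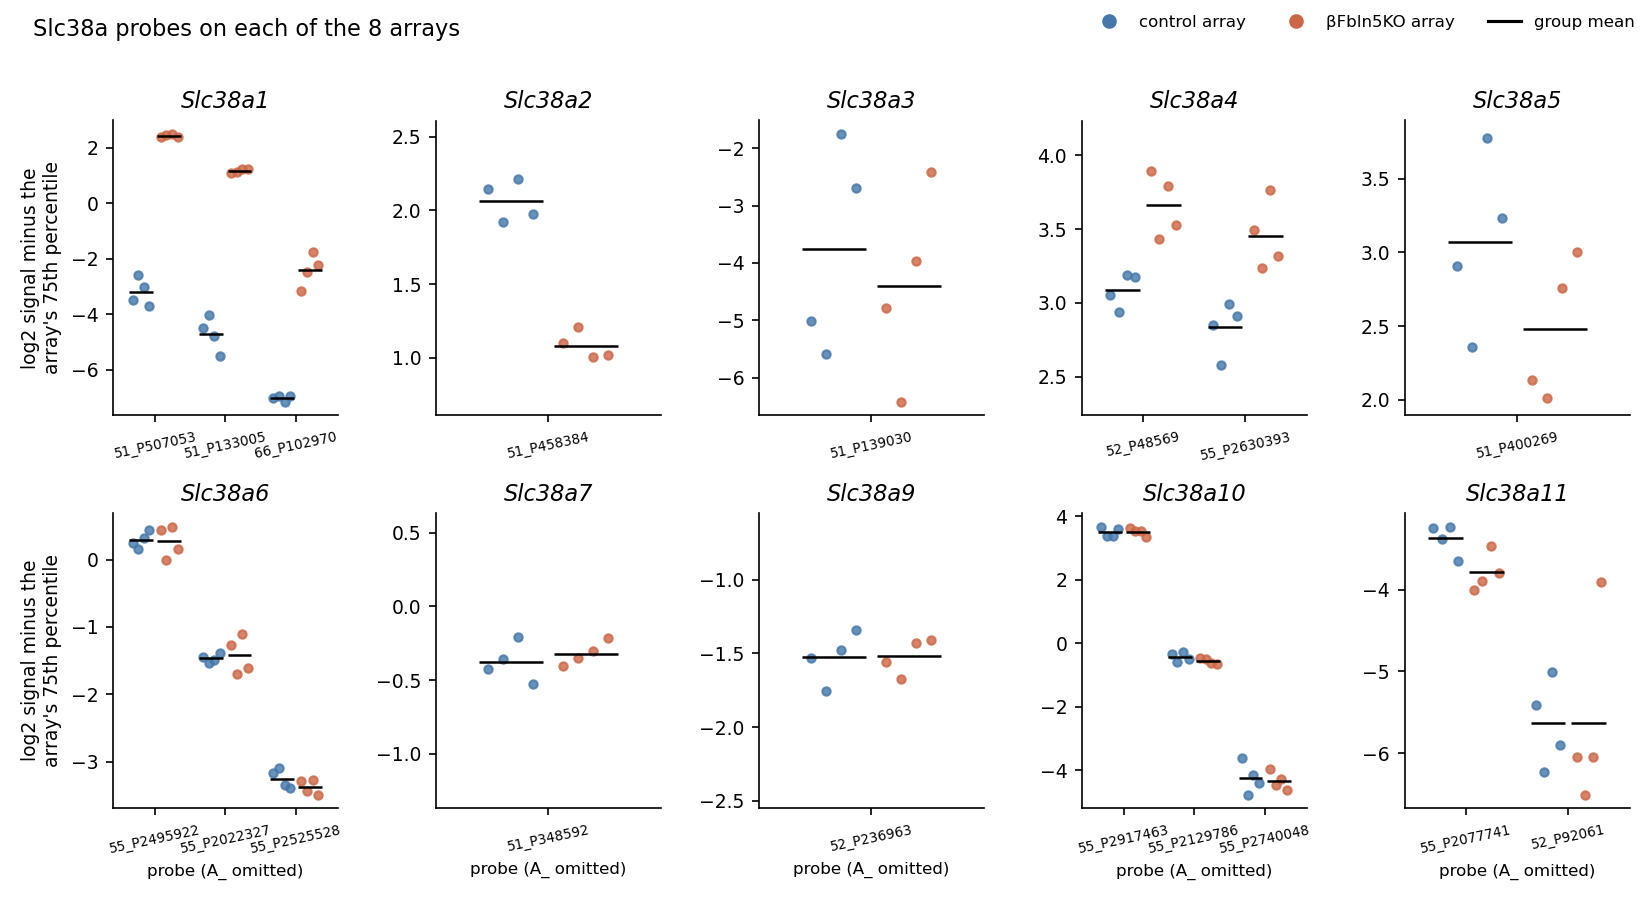
Levels of all 18 Slc38a probes, as log2 signal minus the 75th percentile of the array, with 1 point for each array, control arrays on the left and βFbln5KO arrays on the right of each probe, and a line at the group mean. Vertical scales differ between genes, and the groups stand apart for the 3 probes of Slc38a1, the probe of Slc38a2 and both probes of Slc38a4, and overlap for every other probe.

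The plot of all probes by array shows the third gene whose groups did not overlap, Slc38a4, a system A carrier best known from liver and placenta. The probe A_52_P48569 had levels of 3.05, 2.94, 3.19 and 3.18 on the control arrays and 3.89, 3.43, 3.79 and 3.53 on the βFbln5KO arrays. The probe A_55_P2630393 had levels of 2.85, 2.58, 2.99 and 2.91 on the control arrays and 3.50, 3.24, 3.76 and 3.32 on the βFbln5KO arrays. Both were detected on all 8 arrays, and with both, the lowest βFbln5KO array lay above the highest control array. The differences were 0.57 (SE 0.11, 95% interval 0.33 to 0.82) and 0.62 (SE 0.13, 95% interval 0.33 to 0.91), or 1.49-fold and 1.54-fold. Neither passed the test in limma (adjusted p = 0.0728 for each). Of the 26612 probes detected on every array, 0.661% were without overlap and higher, 3.48% were without overlap and lower, and 0.853% were higher at an unadjusted p under 0.05.

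The adjusted p of Slc38a4 differed between settings, while its direction was the same in all of them. It was 0.0498 for both probes without the mean-variance trend, and 0.00686 and 0.0117 without the array labelled βFbln5KO replicate 4. Over the whole array, 6184 probes were higher and 394 lower at an adjusted p under 0.05 in the first of these settings. In the second there were 11206 and 338, against 5 and 1 in the main fit. These p-values thus do not set Slc38a4 apart from many other probes. The adjusted p was 0.658 for both when the test was limited to probes detected on 4 arrays or more, and 1 with a common floor under dim signals.

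Slc38a2 and Slc38a4 lie side by side on chromosome 15, and the RefSeq sequence before their start sites is shown because the groups did not overlap for either gene while the directions were opposite. Of the 10 genes, 8 have at least 1 start site in the table of windows used here, for 10 windows in all, and Slc38a1 and Slc38a3 have none. Each line gives the 250 bases before a start site, 5′ to 3′ on the minus strand of GRCm38.p6, with matches to the GC box (GGGCGG or CCGCCC) and to the TATA box (TATAAA or TTTATA) in capitals. The first line is at chr15:96699729-96699978, the second at chr15:97055957-97056206 and the third at chr15:97031214-97031463.
Slc38a2: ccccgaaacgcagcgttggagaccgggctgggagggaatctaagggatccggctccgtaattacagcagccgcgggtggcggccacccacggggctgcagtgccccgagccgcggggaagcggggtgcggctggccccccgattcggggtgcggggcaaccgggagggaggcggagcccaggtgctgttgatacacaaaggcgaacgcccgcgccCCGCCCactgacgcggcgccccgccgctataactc
Slc38a4, start site 1: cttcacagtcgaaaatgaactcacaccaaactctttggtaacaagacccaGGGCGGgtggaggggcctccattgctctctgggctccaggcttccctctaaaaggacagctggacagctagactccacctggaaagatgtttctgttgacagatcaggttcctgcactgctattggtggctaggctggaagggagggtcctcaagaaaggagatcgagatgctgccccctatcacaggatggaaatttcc
Slc38a4, start site 2: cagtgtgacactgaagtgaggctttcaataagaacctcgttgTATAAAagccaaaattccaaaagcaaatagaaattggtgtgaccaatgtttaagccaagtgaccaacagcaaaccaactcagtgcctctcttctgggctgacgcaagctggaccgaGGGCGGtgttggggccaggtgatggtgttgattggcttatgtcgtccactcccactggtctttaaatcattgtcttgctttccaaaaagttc

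The sequence before Slc38a2 is 72% G and C, against 52.8% and 46% for the Slc38a4 sequences shown. Each holds 1 GC box, and the TATA box stands only before the second start site of Slc38a4 among the windows of the family. A remaining start site of Slc38a4 has neither. In windows that add 50 bases after the start site, the GC box was present for 6 genes, Slc38a2, Slc38a4, Slc38a5, Slc38a9, Slc38a10 and Slc38a11, and is held by 35.7% of all 32851 windows of this length. The C/EBP-ATF composite site (TGATGNAAT or ATTNCATCA on either strand), which amino acid response factors are known to bind, was in no Slc38a window. It is in 0.965% of all windows, so its absence from 10 windows says little. Sequence further upstream or further into a gene was not searched. The CRE (TGACGTCA, its own reverse complement, 1.79% of windows) was found for Slc38a6, and the E-box (CACGTG, its own reverse complement, 7.15% of windows) for Slc38a5 and Slc38a7. Such matches describe letters in these windows and no binding was measured.

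Slc38a1, Slc38a2 and Slc38a4 follow one another on chromosome 15 in the RefSeq order of protein-coding genes, and the other 7 Slc38a genes lie on other chromosomes. These 3 neighbours were the members whose groups did not overlap. The family was selected with the values of Slc38a1 and Slc38a2 known, so nothing is read from the position of the 3. On the side of Slc38a1, Gm41408 has no probe, and Scaf11 (0.11, SE 0.06) and Arid2 (−0.09, SE 0.08) had overlapping groups, as had Ano6 (0.04, SE 0.09), the remaining gene of the list of neighbours. On the side of Slc38a4, the level of Amigo2, a cell adhesion protein gene, was −0.78, −0.66, −0.56 and −0.89 on the control arrays and 0.09, 0.16 and 0.35 on βFbln5KO arrays 2 to 4, with the value of βFbln5KO array 1 left out as an outlier spot. The difference in Amigo2 was 0.92 (SE 0.10, adjusted p = 0.0728 in limma), and its probe lies in row 8 near the edge of the array. Pced1b, the next gene, had a difference of 0.52 (SE 0.08, adjusted p = 0.0728) and no overlap, and Rpap3 beyond it a difference of 0.03 (SE 0.06) with overlap. Among genes detected on every array, 0.733% were without overlap and higher by their brightest probe and 2.07% without overlap and lower. As the plot of chromosome 15 genes in order shows, the differences in Slc38a1, Slc38a2 and Slc38a4 were of both signs, and those of the nearest genes on the Slc38a1 side were small.

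**Figure D2:**
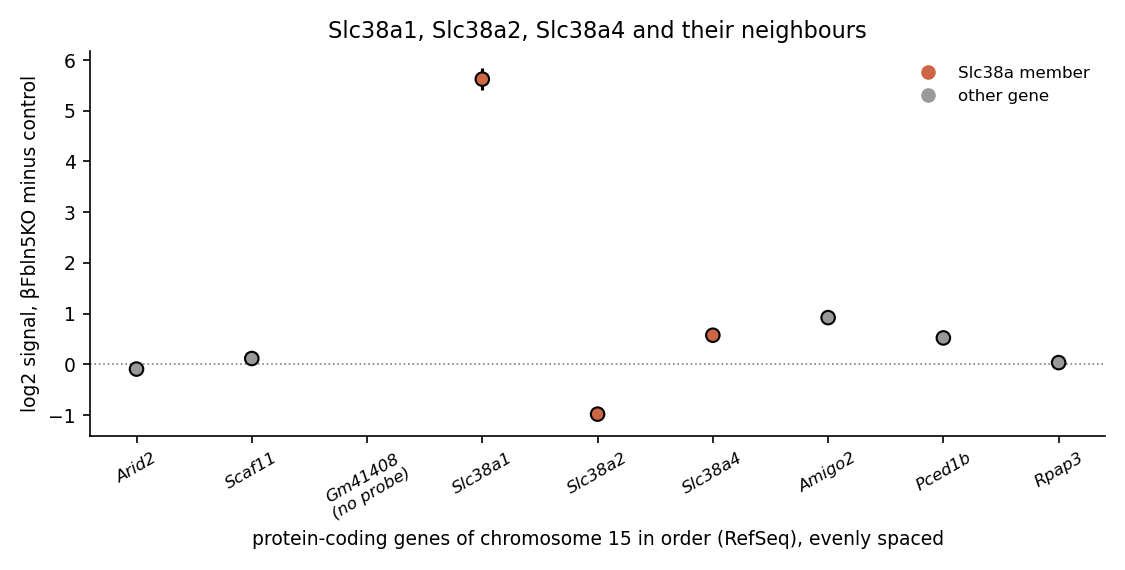
Difference in log2 signal (βFbln5KO minus control, brightest probe of each gene, bars ± SE) for protein-coding genes of chromosome 15 in RefSeq order, evenly spaced rather than to scale, with the Slc38a genes in colour. Slc38a1 stands at 5.62, Slc38a2 at −0.98, Slc38a4 at 0.57, Amigo2 at 0.92 and Pced1b at 0.52, and the genes further out lie near 0.

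The system N carriers Slc38a3 and Slc38a5, which exchange glutamine, varied widely between arrays of the same group. Slc38a5 (A_51_P400269) had levels of 2.91, 2.36, 3.78 and 3.23 on the control arrays and 2.14, 2.01, 2.76 and 3.00 on the βFbln5KO arrays, and was detected on all of them. The groups overlapped, and the difference of −0.59 (SE 0.32, 95% interval −1.31 to 0.13) did not pass the test in limma (adjusted p = 0.307). Slc38a3 (A_51_P139030) had levels of −5.01, −5.60, −1.75 and −2.69 in control and −4.78, −6.43, −3.97 and −2.41 in βFbln5KO. It was detected on 2 arrays of each group, so that values near background enter its difference of −0.64 (SE 1.04, 95% interval −3.01 to 1.74, adjusted p = 0.797).

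Markers of acinar cells, the enzyme-producing exocrine cells that remain attached to isolated islets, were highest on the same arrays as both system N genes, as the plot of their levels against acinar markers shows. All 16 acinar markers were detected on every array, and their mean level was 6.53, 6.27, 8.02 and 7.67 on the control arrays and 6.45, 5.50, 5.59 and 7.23 on the βFbln5KO arrays. Control arrays 3 and 4 and the array labelled βFbln5KO replicate 4 had the highest acinar levels, the highest Slc38a3 levels and the highest Slc38a5 levels. Among the remaining arrays the order differed. βFbln5KO array 3, with an acinar mean of 5.59, had higher levels of both genes than βFbln5KO array 1, with 6.45. The median difference of the acinar markers was −0.97, with 2 of 16, Cela1 and Try4, lower at an unadjusted p under 0.05, as were 2.68% of all genes, and none at an adjusted one. The part of acinar RNA in the values of the Slc38a genes was not tested. Of the remaining marker lists, the 7 α-cell genes had a median difference of −0.23, with 1 lower at an unadjusted p under 0.05, 2 lower without overlap between the groups and none past the adjusted threshold. Of all genes 2.68% were lower at that unadjusted p, and 2.07% of those detected on every array were lower without overlap. Beside them, 1 of 8 macrophage genes, Cd5l, was higher at an adjusted p under 0.05 but detected on 1 array alone. None of the δ-cell, PP-cell, ductal, endothelial or mesenchymal markers passed either threshold.

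**Figure D3:**
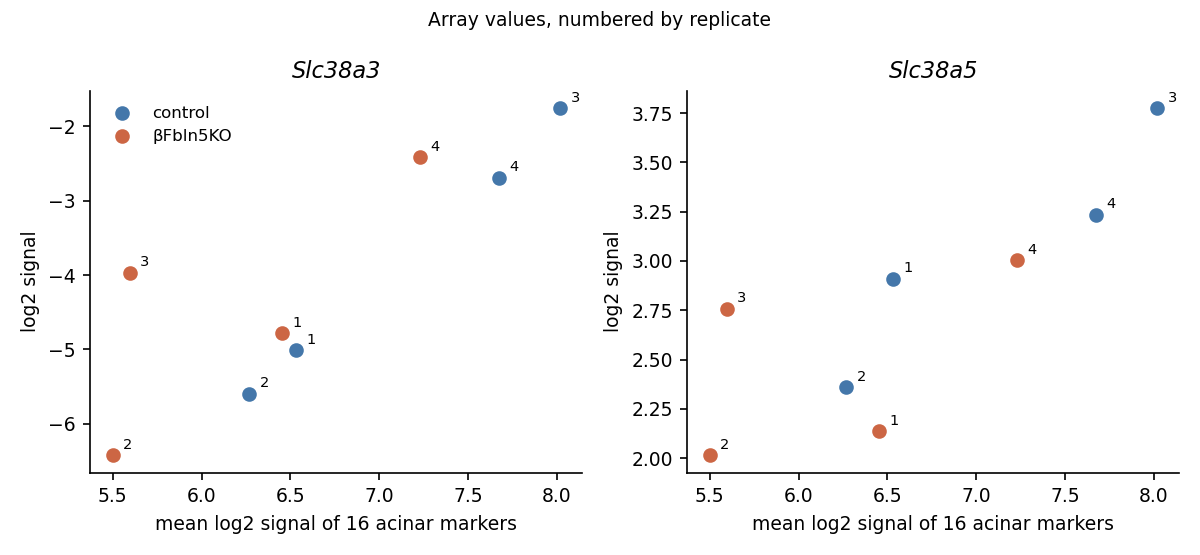
Level of Slc38a3 (left) and Slc38a5 (right) on each array against the mean level of 16 acinar marker genes on the same array, both as log2 signal minus the 75th percentile of the array, with points numbered by replicate. The 3 arrays with acinar means of 7.23, 7.67 and 8.02 carry the highest levels of both genes, and 2 of these are control arrays.

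The lysosomal members showed no difference beyond the spread between arrays. Slc38a9, which senses arginine in the lysosome and signals it to mTORC1, had levels of −1.53, −1.76, −1.48 and −1.34 in control and −1.56, −1.67, −1.43 and −1.41 in βFbln5KO. The groups lay on top of each other, with a difference of 0.01 (SE 0.11, 95% interval −0.24 to 0.26, adjusted p = 0.974 in limma). Slc38a7, which releases glutamine and asparagine from lysosomes, had control levels between −0.53 and −0.21 and βFbln5KO levels between −0.41 and −0.22, with a difference of 0.06 (SE 0.08, 95% interval −0.12 to 0.24, adjusted p = 0.743).

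Slc38a6, Slc38a10 and Slc38a11 are less studied members with more than 1 probe each. The 3 probes of Slc38a6 were detected on all 8 arrays and had differences of −0.02 (95% interval −0.28 to 0.25), 0.04 (−0.27 to 0.35) and −0.12 (−0.48 to 0.24), with adjusted p-values of 0.956, 0.904 and 0.740. The 3 probes of Slc38a10 stand for different RefSeq transcripts. The brightest, A_55_P2917463, had control levels of 3.67, 3.38, 3.37 and 3.59 and βFbln5KO levels of 3.63, 3.54, 3.54 and 3.35, with a difference of 0.01 (95% interval −0.19 to 0.21, adjusted p = 0.969). The others had differences of −0.14 (95% interval −0.34 to 0.06, adjusted p = 0.397) and −0.10 (95% interval −0.78 to 0.58, adjusted p = 0.896). The last of these, A_55_P2740048, was detected on 3 control arrays and 1 βFbln5KO array.

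For Slc38a11, the probe A_55_P2077741 had levels of −3.25, −3.38, −3.23 and −3.65 in control and −4.01, −3.90, −3.46 and −3.79 in βFbln5KO, where it was detected on 3 of 4 arrays. The groups overlapped at 1 array of each, control array 4 and βFbln5KO array 3, and the difference was −0.42 (SE 0.20, 95% interval −0.87 to 0.04, adjusted p = 0.250 in limma). The probe A_52_P92061 of the same gene was detected on the array labelled βFbln5KO replicate 4 alone, at −3.91, and gives no fold. Its other 7 levels lay between −6.51 and −5.00.

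**Figure D4:**
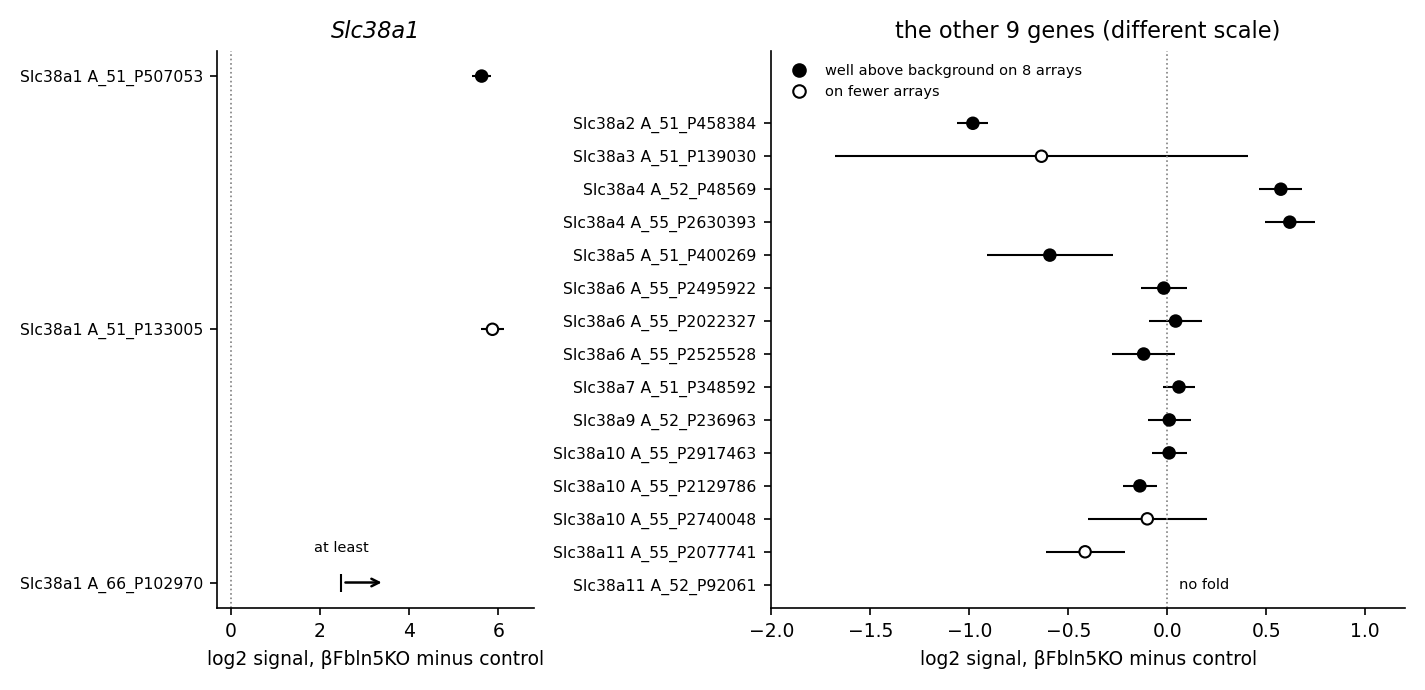
Difference in log2 signal (βFbln5KO minus control, bars ± SE) for each Slc38a probe, with Slc38a1 on a scale of its own; filled points were detected on all 8 arrays, open points on fewer, and the arrow starts at the lower bound of a probe detected on no control array. Slc38a1 lies at 5.62 and 5.87, with a bound of 2.48 for A_66_P102970, Slc38a2 at −0.98, both Slc38a4 probes above 0, and the remaining probes between −0.64 and 0.06, with no fold for A_52_P92061 of Slc38a11.

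Across the 8 genes taken by name there were 14 probes, 7 with a difference above 0, A_52_P92061 with no detection in control among them, and 7 below, with a median of −0.0041 in a range of −0.64 to 0.62, as the plot of differences by probe shows. None had an adjusted p under 0.05 in limma, against 0.0106% of all probes. That share is 6 probes, and 4 of them are the probes of Slc38a1 and Slc38a2, on which the family was selected. Both Slc38a4 probes were higher and none of the 14 lower at the unadjusted threshold of 0.05, where 20.7% of all probes were higher and 3.97% lower. That balance of 11730 higher and 2246 lower probes turned under other settings, to 299 and 3246 with the normexp background correction, 1004 and 2191 with quantile normalization, 350 and 1676 with a common floor, 227 and 1968 among probes detected on at least 4 arrays, and 516 and 2020 in the deposited table. Of the 10 probes of these genes that were detected on every array, 2 were without overlap and higher, the same 2 probes, and none was lower, where 0.661% of all probes detected on every array were without overlap and higher and 3.48% lower.

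The genes around the SNATs in amino acid handling were read from lists of other neutral amino acid carriers, glutamine and glutamate metabolism, lysosomal amino acid sensing with mTORC1, and the ATF4 amino acid response, with the neighbours on chromosome 15 as a further list. All 111 distinct genes were measured, 98 of them detected on every array. None passed an adjusted p under 0.05 in limma, against 0.0131% of all genes by their brightest probe. That share is 3 genes, Slc38a1 and Slc38a2 among them. At the unadjusted threshold 8 were higher and 1 was lower, where 16.8% of all genes were higher and 2.68% lower. Of the 8 higher genes, Slc7a10, Slc6a14, Slc36a2 and Slc7a11 were detected on no array and Castor1 on 2 βFbln5KO arrays alone. The rest, Slc36a1 and the neighbours Amigo2 and Pced1b, were detected on every array. Among all probes detected on every array, 0.853% were higher at that threshold, since the share of 16.8% includes undetected genes.

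Among 22 other neutral amino acid carriers, Slc36a1, a proton-coupled exporter of the lysosome, had a mean level of 0.06 ± 0.05 (SD, n = 4) on the control and 0.84 ± 0.49 (SD, n = 4) on the βFbln5KO arrays. Its groups did not overlap, its probe lies in row 5 near the edge of the array, and its adjusted p was 0.0728. Slc7a5, the large neutral amino acid exchanger that works alongside the SNATs by trading the glutamine they import for leucine, had a difference of −0.36 (SE 0.17, adjusted p = 0.248). Slc6a19, a carrier best known from intestine and kidney, had a difference of 0.23 (SE 0.14, adjusted p = 0.350).

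The enzymes that use SNAT substrates were close to level. In glutamine and glutamate metabolism, none of 22 genes was higher at an unadjusted p under 0.05 or passed the adjusted threshold, and the median difference was 0.01. Gls2, a glutaminase, had a difference of −0.42 (SE 0.29, adjusted p = 0.441), and Ppat, which uses glutamine in purine synthesis, 0.19 (SE 0.13, adjusted p = 0.469).

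Among 36 genes of lysosomal sensing and mTORC1, the list that Slc38a9 acts in, the median difference was 0.01, with 1 gene, Castor1, higher at an unadjusted p under 0.05. Itfg2 and Seh1l, subunits of complexes that regulate mTORC1, had differences of 0.16 (SE 0.08, adjusted p = 0.240) and 0.10 (SE 0.06, adjusted p = 0.318), and Sesn2, a leucine sensor, −0.22 (SE 0.10, adjusted p = 0.249). Among 30 genes of the ATF4 response, the programme known to raise Slc38a2, the median difference was −0.08, and Slc7a11 alone was higher at an unadjusted p under 0.05. Slc6a9, a glycine carrier of that list, had a difference of −0.55 (SE 0.32, adjusted p = 0.363).

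The genes whose levels followed Slc38a1 and Slc38a2 most closely were sought by Pearson's r over the 8 arrays, which share 2 groups and 1 slide. For Slc38a1, among 14599 genes, these were Tmem129 (r = 0.94), Pias3 (r = 0.94) and Crabp1 (r = 0.91), with differences of 0.10, 0.11 and 0.45. Crabp1 was marked as detected on 4 arrays, but only at replicate spots left out of its level as outliers, and on 0 arrays by the spots that gave the level. Its difference lay near the median of 0.47 for probes detected on no array. None of these 3 genes had a difference near that of Slc38a1. For Slc38a2, among 13544 genes, they were Krt17 (r = 0.98), Trim45 (r = 0.97) and Slc35d1 (r = 0.97), with differences of −0.43, −0.53 and −0.44. These values of r describe arrays that fall into 2 groups and carry no test.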

How the data were processed

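Islet RNA of 4 control and 4 βFbln5KO extractions was measured on 8 arrays. The intensity of each spot that the authors deposited is the processed signal of Agilent Feature Extraction 11.0.1.1, made with default parameters by subtracting background and detrending across the array, with no scaling between arrays. They also deposited a list of 35553 probes, whose values are this intensity divided by 1 number per array within 0.01% for at least 99.8% of values. The genes and lists were chosen with earlier results of these data known.

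For all spots but controls, log2 was taken, each array's 75th percentile (709 to 1055) was subtracted, values of outlier spots were left out (1689 of 474440), and replicate spots were averaged to 56605 probes. Probes were named through RefSeq accessions (58.3% named). All probes were fitted with limma 3.58.1 (lmFit, eBayes with trend) in R 4.3.3. P-values were adjusted over every probe by Benjamini-Hochberg and read at 0.05. The number of arrays limits the precision. A gene with several probes is represented by its brightest one, and all Slc38a probes are given. Acinar and other marker levels are means over a list's genes measured on every array. Detected means marked as well above background at any spot of the probe, outlier spots included (939 probes, no Slc38a probe among them, were detected on fewer arrays without those), and bounds on a fold use each dim array's lowest detected signal.

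The text names all 10 Slc38a genes, Fbln5, the chromosome 15 neighbours, from each other list genes among the 3 of smallest p among those detected on all arrays, and the 3 genes of highest r with Slc38a1 and Slc38a2. Other context genes, Cela1, Try4, Iapp, Slc30a8 and Cd5l were named after their values were seen. On simulated arrays for this comparison, 200 of 55671 probes were changed by 2 on the log2 scale and 144 were recovered (72%), with 11 false calls. Of the changed probes detected on all arrays, 78 of 83 were recovered, against 12 of 36 detected on 1 to 7 arrays and 54 of 81 detected on none. Alternatives were normexp (offset 50, on median signals), quantile normalization, a filter on dim probes, a common floor, outlier spots kept, the deposited table, the mean over a gene's probes, eBayes without trend, the methods' t-test, the replicate block and each array left out. Files were read with version 1.17.8 of data.table and plots made with matplotlib 3.10.9 in Python 3.11.15. Promoter windows are those of RefSeq for GRCm38.p6, whose coordinates were used for these windows alone, since the array annotation is on another build. The study's other experiments were not analysed here, and some single genes of the lists are not reported here.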

Additional observations from a re-analysis of the deposited data

Results flagged for a closer look

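Of 100 groups of 4 arrays examined for a value far from the others, 1 stood out, where chance gives about 1 in 20. The mean level of the PP-cell markers was 7.26 on control array 4 and between 7.61 and 7.67 on the other control arrays. No Slc38a probe was among them.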

How the results depend on the processing

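The difference in Slc38a1 was 4.91 with normexp, 5.45 to 5.83 with 1 array left out and within the spread between arrays of 5.62 in all other settings. That in Slc38a2 kept its sign throughout, at −1.03 to −0.93 with 1 array left out. Fbln5 ranged from −0.78 (without βFbln5KO replicate 4, adjusted p = 0.0227) to −0.33 with 1 array left out. Without that array the adjusted calls over all probes rose to 11206 higher and 338 lower, from 5 and 1, and 2 probes could not be fitted. Of the 14 probes of the other Slc38a genes, 2 passed the adjusted threshold with eBayes without trend (6184 higher and 394 lower over all probes), and 0 to 2 with 1 array left out, both of Slc38a4 without βFbln5KO replicate 4; 2 to 3 passed the unadjusted one. The 9 context genes at an unadjusted p under 0.05 became 5 with normexp, 4 with the filter on dim probes, 4 with the floor, 5 in the deposited table and 9 to 14 with 1 array left out (14 without control replicate 2). Adjusted calls among them were 5 with eBayes without trend and 0 to 8 with 1 array left out, 8 without βFbln5KO replicate 4. The methods' t-test called 3 of the 14 probes unadjusted and 0 adjusted, and 10943 higher and 2233 lower probes overall unadjusted and 82 and 5 adjusted. With normexp the difference was −0.031 for Slc38a6 (A_55_P2022327) and −0.018 for Slc38a11 (A_52_P92061), both against small positive values. With 1 array left out, the sign of uncalled differences turned within −1.30 to 0.041 for Slc38a3, −0.091 to 0.073 (A_55_P2495922) and −0.062 to 0.13 (A_55_P2022327) for Slc38a6, −0.066 to 0.072 for Slc38a9, −0.036 to 0.065 (A_55_P2917463) and −0.28 to 0.10 (A_55_P2740048) for Slc38a10, and −0.56 to 0.30 for Slc38a11 (A_52_P92061). Same-numbered arrays did not deviate together (r of 0.20, 0.30, −0.22 and −0.02), and with the replicate block Slc38a1 was 5.62, Slc38a2 −0.98 and 3 of the 14 other Slc38a probes passed the unadjusted threshold against 2, with 0 adjusted, while the adjusted calls over all probes were 2 higher and 0 lower. The cause of these shifts was not tested.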
